A study of Homo sapiens with 6 samples.

Results

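The genes described here are 175 long noncoding RNA genes of a human prostate cancer cell line, read with and without the transcription factor SOX2. They are the rows of the deposited table whose symbols begin with LINC or SNHG, together with MALAT1, NEAT1, GAS5 and KCNQ1OT1, whose mean of the 6 libraries reached 1 CPM, where CPM is a gene's reads per 1000000 reads of its library. The table held 16949 genes, of which 15927 reached that mean. Symbols of this kind belonged to 199 rows, and 24 of them stayed below the minimum. The 175 genes were 152 LINC genes, 20 snoRNA host genes (GAS5 and the SNHG genes) and the 3 genes MALAT1, NEAT1 and KCNQ1OT1. Just above the minimum stood LINC01662 at 1.01 CPM, LINC00115 at 1.02 CPM and LINC00346 at 1.03 CPM, and just below it LINC00547 at 0.984 CPM, LINC01315 at 0.973 CPM and LINC02560 at 0.959 CPM.

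The cells were CWR-R1, an established line of castration-resistant prostate cancer. One group held 3 libraries of the parental state, called untreated in the sample titles, SOX2 positive in the sample traits and Control here. The other held 3 libraries of the SOX2 knockout derivative, SOX2-KO, which the traits call SOX2 negative. The sources used here do not say by what method SOX2 was removed, whether the derivative is 1 clone or a pool, or whether the 3 libraries of a group came from separate cultures. The p-values therefore set the difference between the groups against the spread of libraries within a group, which may be technical only. They speak for these libraries and not for other cultures or derivatives.

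Long noncoding RNAs are transcripts that are spliced and often polyadenylated like messenger RNAs but encode no known protein. The symbol LINC is given to those that lie between protein-coding genes and have no name based on function. A snoRNA host gene carries small nucleolar RNAs, which guide the methylation or pseudouridylation of ribosomal RNA, inside its introns, and the spliced exons of several hosts are known to be removed by nonsense-mediated decay, the pathway that destroys transcripts with early stop codons. MALAT1 and NEAT1 are neighbouring nuclear RNAs: the former gathers in nuclear speckles with splicing factors, and the latter is the scaffold of paraspeckles. KCNQ1OT1 is made from the paternal chromosome, antisense to KCNQ1, and silences neighbouring imprinted genes in cis.

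The depth, estimated from the value of 1 read, lay between 20717788 and 25739759 reads per library, so that 1 CPM stood for 20.7 to 25.7 reads, and a floor of 3 reads for 0.117 to 0.145 CPM. SOX2 itself was at 55.7, 54.3 and 55.5 CPM in the Control libraries and at 4.70, 4.56 and 3.83 CPM in the SOX2-KO libraries, a log2 difference of -3.39 (limma, adjusted p = 1.65e-08). The 8 markers of a prostate epithelial line, among them FOXA1 and EPCAM, summed to 3814 to 3882 CPM in Control and 4214 to 4450 CPM in SOX2-KO, while 2 of 6 fibroblast and 1 of 4 endothelial markers were found in the table. The fibroblast markers COL1A1 and LUM summed to 7.28 to 8.30 CPM in Control and 2.54 to 3.34 CPM in SOX2-KO, and the endothelial marker VWF stood at 2.96 to 4.08 CPM in Control and 19.9 to 21.2 CPM in SOX2-KO. The third SOX2-KO library stood apart from the other two of its group: the 15 genes of the mitochondrial genome summed to 34441 CPM in it, against 18723 and 16849 CPM in SOX2-KO libraries 1 and 2 and 32255 to 34543 CPM in Control. It was also the highest of the 3 SOX2-KO libraries for 103 of the 175 genes (58.9%), against 34.7% of all genes tested.

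The 175 genes took fewer reads in SOX2-KO, and the difference was mainly in MALAT1. Summed over all of them, the level was 7268, 7777 and 8039 CPM in Control and 5024, 4994 and 6854 CPM in SOX2-KO. The 20 snoRNA hosts summed to 1032, 1068 and 1038 CPM in Control and 869, 992 and 1020 CPM in SOX2-KO. The 152 LINC genes summed to 1579, 1570 and 1583 CPM in Control and 1432, 1463 and 1585 CPM in SOX2-KO. All 3 sums were lowest in the first or second SOX2-KO library, and for the LINC genes the third lay marginally above every Control library.

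Gene by gene, changes in both directions were about equally frequent. Of the 175 genes 67 (38.3%) were called at a limma adjusted p under 0.05, with 32 higher and 35 lower in SOX2-KO, where the background over all 15927 genes tested was 57.8% called, 25% higher and 32.9% lower. The groups did not overlap for 75 genes (42.9%), against 64.5% of all genes tested. The median log2 difference was -0.05, against -0.06 over all genes, and the range ran from -1.30 to 1.30. At 2-fold or more in mean CPM, 8 genes were higher and 6 lower, all of them called. Of all 15927 genes tested 539 were higher and 807 lower by that fold, of which 497 and 780 were called. For 14 of the 175 genes 1 of the group means was under 1 CPM, so that they met the minimum through the other group only; 6 of these were called, 5 higher and 1 lower, and 61 calls stand without them. They include 4 of the 8 genes at 2-fold or more higher.

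The lower share of calls went with lower levels. The median of the mean level was 3.83 CPM for these genes and 23.7 CPM for all genes tested, and the median standard error (SE) of a log2 difference was 0.14 against 0.08. Among genes with a mean of 1 to 5 CPM, 23 of 107 (21.5%) were called, against 34.6% of all genes in that range. With 5 to 20 CPM, 20 of 35 (57.1%) were called, against 52.9%. At 20 CPM or more, 24 of 33 (72.7%) were called, against 70%. Without the third SOX2-KO library 57 of the 67 calls remained, and 44 remained whichever library was left out.

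**Figure D1:**
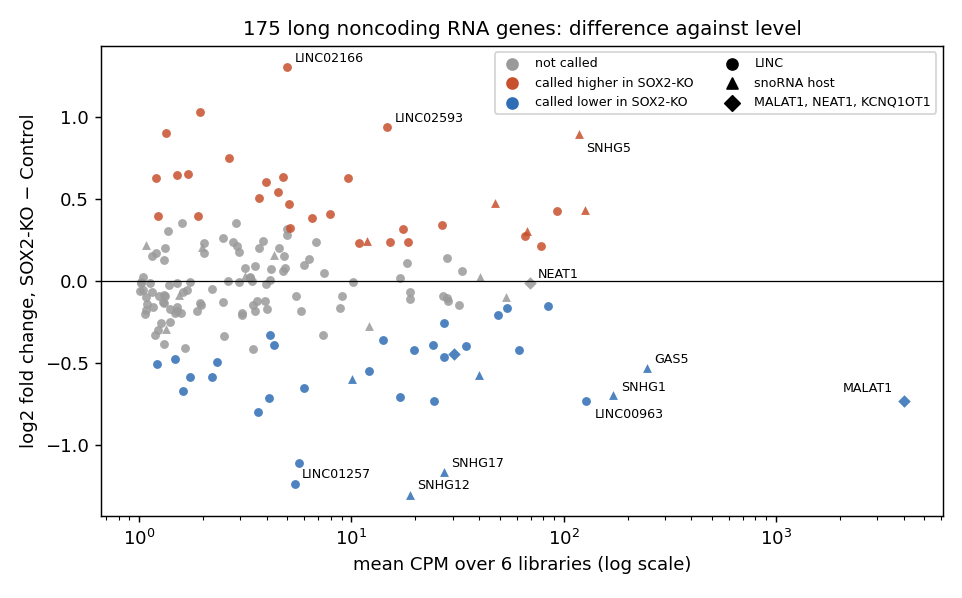
Log2 difference (SOX2-KO minus Control, on the log2(CPM + 1) scale) against mean CPM over 6 libraries (log axis), 1 symbol per gene: circles for LINC genes, triangles for snoRNA hosts, diamonds for MALAT1, NEAT1 and KCNQ1OT1. Red marks the 32 genes called higher and blue the 35 called lower, and most grey symbols lie at low levels.

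Among the snoRNA hosts 11 of 20 (55%) were called, against the background of 57.8%. SNHG12, SNHG17, SNHG1, SNHG11, SNHG15 and GAS5 were lower in SOX2-KO, and SNHG5, SNHG8, SNHG16, SNHG6 and SNHG20 were higher. The largest fall was 2.56-fold, in SNHG12, and the largest rise 1.88-fold, in SNHG5. RefSeq (GRCh38.p14) windows around the annotated start were found for 17 of the 20 hosts. Those of 9 called hosts are shown because many hosts, like messenger RNAs of ribosomal proteins, are known to begin with a run of pyrimidines near the start. Each window runs from 20 bases before to 40 bases after the start. Capitals mark the longest run of C and T, or the first of 2 equally long runs in SNHG1, SNHG11 and SNHG20. Counted from the start, the marked run begins at base -20 in SNHG1 and SNHG17, -11 in SNHG20, -5 in SNHG8 and -1 in SNHG5 and SNHG12. It begins at base 4 in SNHG16, 10 in SNHG11 and 32 in GAS5, so a marked run need not lie at the start. The 4 that were higher in SOX2-KO are SNHG5 (chr6:85678694-85678753, minus strand), SNHG8 (chr4:118278742-118278801, plus strand), SNHG16 (chr17:76557744-76557803, plus strand) and SNHG20 (chr17:77088623-77088682, plus strand).
SNHG5: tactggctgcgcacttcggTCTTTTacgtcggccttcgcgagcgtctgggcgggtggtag
SNHG8: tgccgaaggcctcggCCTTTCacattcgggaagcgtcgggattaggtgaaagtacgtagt
SNHG16: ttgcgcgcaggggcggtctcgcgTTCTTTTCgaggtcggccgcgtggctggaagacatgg
SNHG20: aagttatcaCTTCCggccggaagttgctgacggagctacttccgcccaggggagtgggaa
The 5 that were lower are SNHG12 (chr1:28581834-28581893, minus strand), SNHG17 (chr20:38435289-38435348, minus strand), SNHG1 (chr11:62855846-62855905, minus strand), SNHG11 (chr20:38446634-38446693, plus strand) and GAS5 (chr1:173869006-173869065, minus strand).
SNHG12: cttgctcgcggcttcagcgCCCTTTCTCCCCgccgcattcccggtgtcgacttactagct
SNHG17: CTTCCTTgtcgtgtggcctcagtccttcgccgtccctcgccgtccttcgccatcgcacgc
SNHG1: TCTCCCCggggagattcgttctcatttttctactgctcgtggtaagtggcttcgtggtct
SNHG11: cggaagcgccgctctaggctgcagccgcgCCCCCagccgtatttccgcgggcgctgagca
GAS5: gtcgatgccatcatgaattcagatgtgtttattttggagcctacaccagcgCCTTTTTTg
The longest run in SNHG12 was 12 bases long, those of SNHG16 and GAS5 were 8, those of SNHG1 and SNHG17 were 7, those of SNHG5 and SNHG8 were 6, and those of SNHG11 and SNHG20 were 5. Counted once per host over all its windows, a run of 8 or more was present in 5 of the 17 hosts. It was present in 22.5% of the 35114 single windows of all genes, so the units of these shares differ. Of the 3 such runs shown 1 is in a host that rose and 2 are in hosts that fell, SNHG12 and GAS5. The GAS5 window lies wholly outside the span that GENCODE gives for that gene (173863900 to 173868882, minus strand), upstream of its start. RefSeq and GENCODE thus place the start of GAS5 differently, and its run belongs to the RefSeq window only. The starts differ in other hosts too: the SNHG12 window lies wholly inside the GENCODE span of that gene, well downstream of the GENCODE start. A run is a description of these letters and not a mapped start.

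SNHG12, on chromosome 1 (ENSG00000197989, 28578538 to 28583132, GRCh38, minus strand), inside which RefSeq places 3 SNORA genes and 1 SNORD gene, stood at 28.1, 25.9 and 27.1 CPM in Control and 7.94, 10.5 and 13.2 CPM in SOX2-KO. The groups were far apart, with every Control value well above the highest SOX2-KO value. The mean fell from 27.0 ± 1.06 to 10.6 ± 2.65 CPM (SD, n = 3), a log2 difference of -1.30 (SE 0.15, limma adjusted p = 7.89e-05). SNHG3, the host of SNORA73A and SNORA73B, starts 77.2 kb from SNHG12 on the opposite strand and was not called, at 13.8, 13.5 and 12.5 CPM in Control and 9.24, 9.97 and 13.6 CPM in SOX2-KO (log2 -0.27, adjusted p = 0.104). SOX2-KO library 3 lay inside the Control range, and without that library SNHG3 was called lower (log2 -0.42, adjusted p = 0.00464). SNHG3 lies within the span of RCC1 on the same strand, so its values are less certain.

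A pair of hosts on chromosome 20 fell together. SNHG17 (38420588 to 38435353, minus strand), with 4 SNORA71 genes inside, stood at 38.6, 38.3 and 37.2 CPM in Control and 13.3, 17.4 and 19.0 CPM in SOX2-KO. The mean was 2.29-fold lower (log2 -1.16, SE 0.11, adjusted p = 2.92e-05). SNHG11, which carries SNORA71E and SNORA60 and starts 11225 bases away on the plus strand, stood at 12.3, 11.8 and 12.4 CPM in Control and 5.70, 9.24 and 8.66 CPM in SOX2-KO. Neither gene's groups overlapped, and SNHG11 was 1.55-fold lower (log2 -0.60, SE 0.15, adjusted p = 0.00849). The protein-coding genes within 2.5 Mb of the pair had a median log2 difference of -0.21.

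SNHG1 and GAS5 are hosts that carry long series of snoRNAs, 9 and 11 by RefSeq. SNHG1 (chromosome 11, 62851988 to 62855914) stood at 208, 216 and 203 CPM in Control and 102, 145 and 146 CPM in SOX2-KO. It fell 1.60-fold (log2 -0.69, SE 0.12, adjusted p = 0.0011). GAS5 (chromosome 1, 173863900 to 173868882), which is also known as a decoy for the glucocorticoid receptor, stood at 280.4, 301 and 295 CPM in Control and 173, 218 and 217 CPM in SOX2-KO. The groups were apart in both genes, and the first SOX2-KO library was the lowest in both. GAS5 fell 1.44-fold (log2 -0.53, SE 0.08, adjusted p = 0.000559). SNHG15 (chromosome 7, 44983023 to 44986961), the host of SNORA9, stood at 48.8, 47.0 and 47.3 CPM in Control and 26.4, 34.6 and 35.0 CPM in SOX2-KO, again without overlap, and fell 1.49-fold (log2 -0.57, SE 0.10, adjusted p = 0.000995). The protein-coding genes within 2.5 Mb of SNHG15 had a median log2 difference of 0.26, in the other direction.

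SNHG5, the host of SNORD50A and SNORD50B (ENSG00000203875, chromosome 6, 85660950 to 85678748), rose most among the hosts. It stood at 83.0, 81.1 and 81.8 CPM in Control and 143, 158 and 160.3 CPM in SOX2-KO, so that every SOX2-KO library was far above every Control library. The mean rose 1.88-fold, from 82.0 ± 0.961 to 154 ± 9.25 CPM (SD, n = 3), with a log2 difference of 0.90 (SE 0.05, limma adjusted p = 1.38e-06). SNHG8 (chromosome 4, 118278709 to 118279823), the host of SNORA24, stood at 38.5, 40.4 and 38.6 CPM in Control and 47.2, 61.2 and 57.7 CPM in SOX2-KO. It rose 1.41-fold (log2 0.48, SE 0.09, adjusted p = 0.00136), with no overlap between the groups.

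The other 3 higher hosts changed less, and their values are less certain. SNHG16, which carries SNORD1A, SNORD1B and SNORD1C, stood at 100.2, 109 and 112 CPM in Control and 161, 129 and 147 CPM in SOX2-KO (log2 0.43, SE 0.08, adjusted p = 0.00136). SNHG6, which carries SNORD87, stood at 58.1, 62.9 and 59.5 CPM in Control and 69.1, 78.9 and 75.9 CPM in SOX2-KO (log2 0.30, SE 0.06, adjusted p = 0.00177). Both were apart between groups, but 30.6% of the exonic bases of SNHG16 lie in exons of AC015802.6 and 29.3% of those of SNHG6 in exons of MCMDC2, and the sources used here do not say whether counting used strand. SNHG20, in which RefSeq places no snoRNA, stood at 11.2, 10.9 and 10.2 CPM in Control and 12.6, 12.1 and 14.3 CPM in SOX2-KO (log2 0.25, SE 0.09, adjusted p = 0.042), and this call was lost in 7 of 15 alternatives, with adjusted p up to 0.131.

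The remaining hosts SNHG4, SNHG7, SNHG9, SNHG10, SNHG14, SNHG19, SNHG21 and SNHG22 were not called, and the groups overlapped in each. SNHG14, the long transcript of the Prader-Willi and Angelman region that runs antisense to UBE3A and holds 83 SNORD genes, stood at 37.4, 42.5 and 39.3 CPM in Control and 43.7, 38.0 and 40.04 CPM in SOX2-KO (log2 0.03, SE 0.07, adjusted p = 0.748). SNHG7 stood at 60.3, 54.6 and 50.3 CPM in Control and 42.6, 58.1 and 54.7 CPM in SOX2-KO (log2 -0.09, SE 0.11, adjusted p = 0.495). The other 6 had mean levels between 1.08 and 4.34 CPM, and their log2 differences ran from -0.29 to 0.22 with adjusted p from 0.158 to 0.845. SNHG14 became called higher when the median difference of the surrounding protein-coding genes was subtracted (adjusted p = 0.0289). SNHG21 moved the same way, but it met the 1 CPM minimum only through SOX2-KO, so its direction is no result. It also shares 72.9% of its exonic bases with AC105339.2. The first SOX2-KO library was the lowest of its group for 14 of the 20 hosts (70%), against 42.1% of all genes tested.

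**Figure D2:**
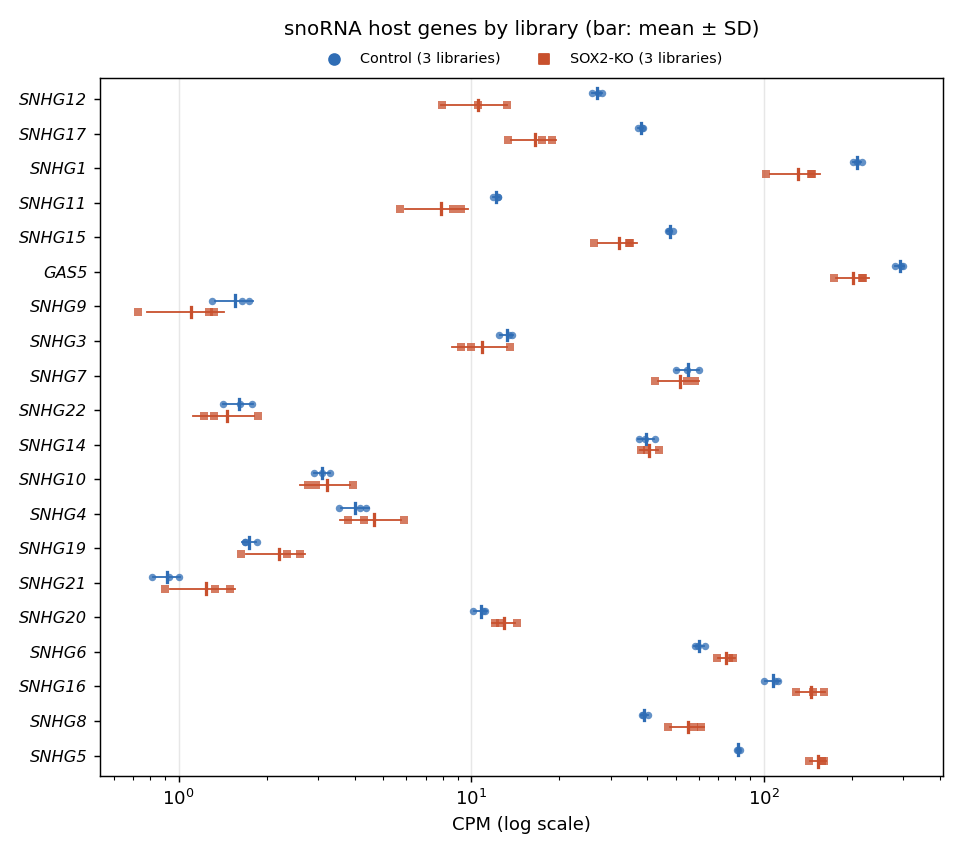
CPM (log axis) of the 20 snoRNA hosts in each of the 3 Control libraries (blue circles) and 3 SOX2-KO libraries (red squares), with the mean (tick) and SD (bar), ordered by log2 difference from SNHG12 at -1.30 to SNHG5 at 0.90. The groups are apart in the 6 hosts at the top and the 5 at the bottom.

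Newer nomenclature places further hosts among the rows. SNHG32, which GENCODE 29 still calls C6orf48, stood at 45.8, 45.1 and 45.3 CPM in Control and 17.9, 23.3 and 23.1 CPM in SOX2-KO. It was lower by a log2 difference of -1.06 (SE 0.09, limma adjusted p = 1.94e-05), and the groups did not overlap. SNHG29, listed there as LRRC75A-AS1, stood at 412, 400.2 and 412 CPM in Control and 367, 401 and 391 CPM in SOX2-KO and was not called (log2 -0.08, adjusted p = 0.145), with overlapping groups. SNHG31, listed as AC016708.1, stood at 3.15, 2.85 and 2.73 CPM in Control and 1.35, 0.501 and 0.842 CPM in SOX2-KO (log2 -1.07), without overlap. It met the minimum only through Control, so no test is given. SNHG30 is among the 175 genes as LINC02001 and was not called.

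Protein partners of the hosts were described from lists of known factors. Of all protein-coding genes tested 63.1% were called, 27% higher and 36.1% lower, and the counts of the lists are read against these. Of 35 protein-coding genes that carry snoRNAs in their introns, 19 were called higher and 9 lower (80%, median log2 0.18). RPL17, a ribosomal protein of the large subunit, rose from 415 ± 23.7 to 837 ± 10.2 CPM (SD, n = 3; log2 1.01, adjusted p = 6.5e-07). EIF4A1, an RNA helicase of translation initiation, rose from 588 ± 4.35 to 1018 ± 23.9 CPM (log2 0.79, adjusted p = 8.35e-07). Both had groups far apart. EIF4A2, the paralog of EIF4A1, fell from 187 ± 3.68 to 139 ± 12.2 CPM (log2 -0.42, adjusted p = 0.000313), and became higher (log2 0.18, adjusted p = 0.0202) once the surrounding genes were subtracted. TNPO2, an import receptor, fell from 222 ± 4.87 to 187 ± 2.21 CPM (log2 -0.25, adjusted p = 0.000331), a call lost with that subtraction (adjusted p = 0.563).

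Of the 8 core proteins of snoRNA particles, 3 were higher and 4 lower (87.5%, median log2 -0.02). In the H/ACA particle, which makes pseudouridine, NHP2 rose from 70.8 ± 2.12 to 99.1 ± 2.44 CPM (log2 0.48, adjusted p = 1.78e-05) and GAR1 from 26.3 ± 1.64 to 36.4 ± 3.44 CPM (log2 0.45, adjusted p = 0.00105). NOP10 of the same particle fell from 41.7 ± 1.22 to 30.7 ± 1.12 CPM (log2 -0.43, adjusted p = 0.000127). FBL, the methyltransferase of the C/D particle, fell from 113 ± 3.99 to 90.5 ± 1.49 CPM (log2 -0.32, adjusted p = 0.000159), and lost its call with the surrounding genes subtracted (adjusted p = 0.149). The particle's proteins thus did not move in one direction. Of 12 assembly factors 6 were higher and 1 lower (58.3%, median log2 0.11). NOLC1, a nucleolar chaperone of snoRNA particles, rose from 270.1 ± 2.92 to 465 ± 4.02 CPM (log2 0.78, adjusted p = 4.23e-07). RPAP3, of the R2TP chaperone complex, rose from 54.8 ± 1.53 to 72.5 ± 1.75 CPM (log2 0.40, adjusted p = 6.6e-05). The 1 lower factor, ZNHIT6, went from 49.9 ± 1.14 to 42.4 ± 2.48 CPM (log2 -0.23, adjusted p = 0.00592), and was not called after the subtraction (adjusted p = 0.65).

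Of 20 factors of nonsense-mediated decay 13 were called lower and 3 higher (80%, median log2 -0.32). NCBP2, the small subunit of the cap-binding complex, fell from 81.4 ± 1.58 to 51.9 ± 1.203 CPM (log2 -0.64, adjusted p = 3.6e-06), but its difference was at the level of its neighbourhood (adjusted p = 0.785 after subtraction). EIF4A3, of the exon junction complex, rose from 68.7 ± 3.75 to 111 ± 2.45 CPM (log2 0.69, adjusted p = 5.61e-06). The groups were apart in both. DCP1A, a cofactor of decapping, rose from 85.7 ± 2.92 to 99.0 ± 5.93 CPM (log2 0.20, adjusted p = 0.00888). Of 23 factors of nuclear RNA turnover and 3′ end processing, 2 were higher and 10 lower (52.2%, median log2 -0.19). MTREX, the helicase of the nuclear exosome, fell from 129 ± 2.82 to 84.4 ± 5.84 CPM (log2 -0.61, adjusted p = 1.64e-05), and TENT4A, a noncanonical poly(A) polymerase, from 74.1 ± 3.38 to 45.1 ± 0.494 CPM (log2 -0.70, adjusted p = 4.37e-06). ELAC2, the nuclease that trims tRNA 3′ ends, rose from 65.5 ± 1.76 to 106 ± 4.43 CPM (log2 0.69, adjusted p = 3.89e-06), and the exosome subunit EXOSC7 from 23.6 ± 0.0558 to 37.1 ± 2.99 CPM (log2 0.63, adjusted p = 4.96e-05).

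MALAT1 (ENSG00000251562, chromosome 11, 65497688 to 65506516, plus strand) was lower in SOX2-KO, and how much lower differed between the SOX2-KO libraries. It stood at 4557, 5034 and 5311 CPM in Control and at 2646, 2459 and 4117 CPM in SOX2-KO. All SOX2-KO libraries were below all Control libraries, but the third lay 1.61-fold above the mean of the first and second. SOX2-KO libraries 1 and 2 had a mean of 2553 CPM, 51.4% of the Control mean, and library 3 was at 82.9% of it. Over all libraries the mean was 4967 ± 381 CPM in Control and 3074 ± 908 CPM in SOX2-KO (SD, n = 3; log2 -0.73, SE 0.17, limma adjusted p = 0.00566). Permuting the 6 libraries gave an exact two-sided p of 0.1, which is the smallest that 3 against 3 allow. Without SOX2-KO library 3 the log2 difference was -0.96 (adjusted p = 2.33e-05). In bulk samples, fewer cells of a kind and less RNA per cell cannot be told apart.

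NEAT1 (ENSG00000245532, chromosome 11, 65422774 to 65445540, plus strand) was not called, and the third SOX2-KO library decided this. It stood at 67.0, 68.4 and 69.7 CPM in Control and at 50.8, 59.2 and 103 CPM in SOX2-KO. The first and second SOX2-KO libraries were below every Control library and the third above all of them, 1.88-fold over the mean of the other two. They averaged 55.0 CPM, 80.5% of the Control mean, while library 3 was at 151%. The means of all libraries were 68.3 ± 1.34 CPM in Control and 71.2 ± 28.3 CPM in SOX2-KO (SD, n = 3; log2 -0.01, SE 0.21, limma adjusted p = 0.97), and the exact two-sided permutation p was 1. With library 3 left out NEAT1 was called lower (log2 -0.31, adjusted p = 0.00477). The sum of the mitochondrial genome genes was also high in this library, as given above, and its part in the MALAT1 and NEAT1 values was not tested.

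KCNQ1OT1 (ENSG00000269821, chromosome 11, 2608328 to 2699994, minus strand) stood at 32.3, 36.4 and 37.1 CPM in Control and 27.1, 21.2 and 29.3 CPM in SOX2-KO. Every SOX2-KO library was below every Control library, and the log2 difference was -0.44 (SE 0.11, limma adjusted p = 0.00794). It lies inside KCNQ1 on the other strand, so without strand its reads and those of KCNQ1 introns cannot be told apart. Of the 14 symbols listed for its imprinted domain, which hold CARS under an old and a new name, 10 genes were tested. Of these 4 were higher and 1 lower (50%, median log2 0.23). CD81, a tetraspanin, rose from 145 ± 8.50 to 198 ± 6.995 CPM (SD, n = 3; log2 0.44, adjusted p = 8.12e-05), and OSBPL5, an oxysterol-binding protein, from 22.7 ± 0.758 to 33.7 ± 0.248 CPM (log2 0.55, adjusted p = 3.43e-05). The 1 lower gene was ASCL2, a transcription factor of trophoblast and intestinal stem cells. It stood at 8.68 ± 1.42 CPM in Control and 0.875 ± 0.228 CPM in SOX2-KO (log2 -2.36). ASCL2 met the 1 CPM minimum only through Control, so these values are a description without a test.

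**Figure D3:**
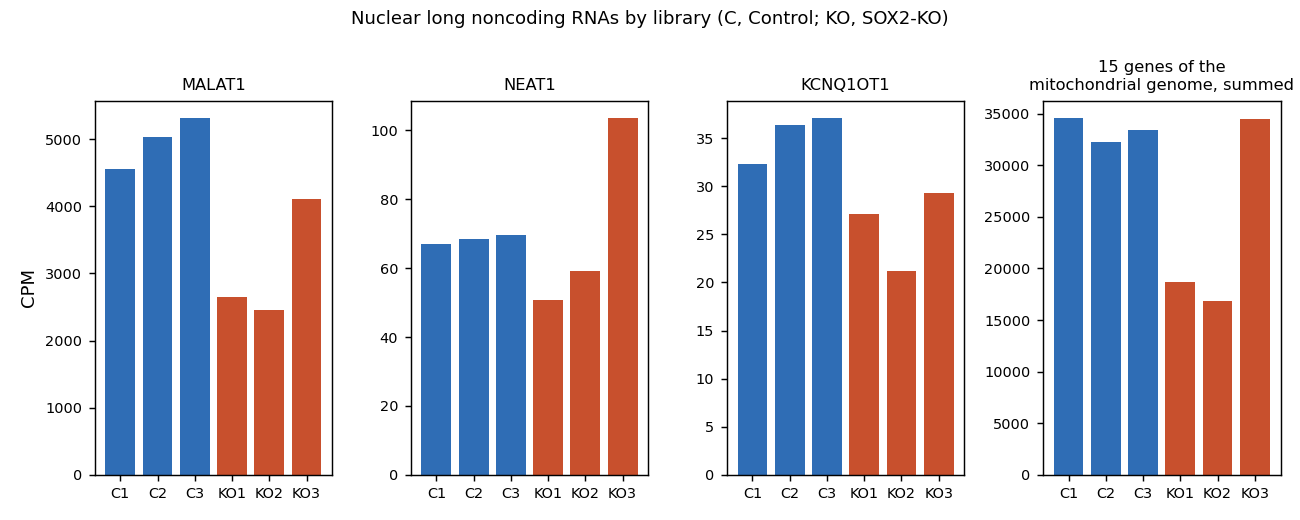
CPM of MALAT1, NEAT1 and KCNQ1OT1 and the summed CPM of 15 genes of the mitochondrial genome in each library (C1 to C3, Control; KO1 to KO3, SOX2-KO), on linear axes that start at 0. The third SOX2-KO library is the highest of its group in all 4 panels, with MALAT1 at 4117 CPM and NEAT1 at 103 CPM.

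Proteins of the nuclear bodies that these RNAs belong to were described in the same way. Of 23 paraspeckle proteins 4 were higher and 15 lower (82.6%, median log2 -0.24). DAZAP1 fell from 326 ± 19.9 to 194 ± 5.87 CPM (log2 -0.74, adjusted p = 4.42e-06) and HNRNPH3 from 282 ± 5.39 to 204 ± 0.238 CPM (log2 -0.46, adjusted p = 7.38e-06), both RNA-binding proteins. Neither gene's Control and SOX2-KO libraries overlapped. NONO, which binds NEAT1 directly and is needed for paraspeckles, rose from 496 ± 11.2 to 649.8 ± 9.53 CPM (log2 0.39, adjusted p = 3.16e-05), and the splicing regulator HNRNPA1 rose from 1215 ± 47.8 to 1581 ± 32.2 CPM (log2 0.38, adjusted p = 0.000149). Of 21 speckle and SR proteins, which act in splicing, 2 were higher and 8 lower (47.6%, median log2 -0.02). SRSF10 fell from 317 ± 7.77 to 234 ± 16.4 CPM (log2 -0.44, adjusted p = 0.00012) and SRSF6 from 258 ± 1.85 to 203 ± 10.6 CPM (log2 -0.35, adjusted p = 0.000168). TRA2A went from 86.8 ± 2.90 to 105 ± 3.09 CPM (log2 0.28, adjusted p = 0.000551; 0.148 with the surrounding genes subtracted). ACIN1 went from 217 ± 11.5 to 243 ± 15.9 CPM (log2 0.16, adjusted p = 0.0388), and lost its call in 5 of 15 alternatives (adjusted p up to 0.127).

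Of the 152 LINC genes 54 were called (35.5%), 27 higher and 27 lower, against 57.8% of all genes tested, 25% higher and 32.9% lower. The 6 called genes that met the minimum through 1 group only, 5 higher and 1 lower, are all LINC genes. By level, 23 of 101 (22.8%) were called at 1 to 5 CPM, against 34.6% of all genes in that range. At 5 to 20 CPM 17 of 31 (54.8%) were called, against 52.9%. At 20 CPM or more 14 of 20 (70%) were called, against 70%. LINC02166 (ENSG00000260259, chromosome 16, 89682620 to 89686569, minus strand) had the largest log2 rise, at 2.61, 2.21 and 2.51 CPM in Control and 6.51, 7.61 and 8.47 CPM in SOX2-KO. Its groups were far apart, and the mean rose 3.08-fold (log2 1.30, SE 0.12, limma adjusted p = 2.69e-05). LINC01257 (ENSG00000204603, chromosome 12, 131165011 to 131212931, plus strand) had the largest fall, at 7.69, 7.38 and 8.93 CPM in Control and 2.79, 3.04 and 2.64 CPM in SOX2-KO. Its mean was 2.83-fold lower (log2 -1.23, SE 0.11, adjusted p = 2.19e-05), also without overlap.

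Beside LINC02166, 9 more are the largest rises among called LINC genes whose groups did not overlap. LINC02593 (chromosome 1, 916865 to 921016) went from 9.79 ± 1.12 to 19.8 ± 3.04 CPM (SD, n = 3; log2 0.94, adjusted p = 0.000174) and LINC00680 from 7.31 ± 0.347 to 11.9 ± 0.473 CPM (log2 0.63, adjusted p = 0.000214). LINC00992 went from 3.50 ± 0.230 to 5.99 ± 0.469 CPM (log2 0.63, adjusted p = 0.000915). The other 6 had means under 3 CPM in Control, where counting error weighs more. LINC00858 went from 1.09 ± 0.243 to 2.30 ± 0.441 CPM (log2 0.66, adjusted p = 0.00649), and LINC01291 from 2.93 ± 0.385 to 4.97 ± 0.339 CPM (log2 0.61, adjusted p = 0.00215). LINC01137 was at 0.924 ± 0.283 CPM in Control and 2.94 ± 0.641 CPM in SOX2-KO (log2 1.03), LINC00271 at 0.633 ± 0.207 and 2.05 ± 0.267 CPM (log2 0.91), and LINC01852 at 0.728 ± 0.126 and 1.67 ± 0.176 CPM (log2 0.63). These 3 met the 1 CPM minimum only through SOX2-KO and so had to be higher there, and their values are a description without a test. LINC01011 went from 1.73 ± 0.340 to 3.57 ± 0.123 CPM (log2 0.75, adjusted p = 0.00112), but 20.7% of its exonic bases lie in exons of NQO2 and its call was lost with the surrounding genes subtracted (adjusted p = 0.109). The groups did not overlap in any of the 10, which the choice of these genes required. LINC01376, with a log2 difference of 0.65 but overlapping groups, is outside that choice, and it too met the minimum only through SOX2-KO (0.945 ± 0.322 and 2.08 ± 0.743 CPM). LINC00680 is annotated as a transcribed pseudogene, so reads may be divided with its parent gene.

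Among the falls, LINC00963 (ENSG00000204054, chromosome 9, 129483451 to 129513686, plus strand), which has been studied in the passage of prostate cancer to androgen independence, had the smallest p. It stood at 155, 156 and 164 CPM in Control and 90.9, 93.7 and 101 CPM in SOX2-KO, a gap many times the spread within a group (log2 -0.73, SE 0.05, limma adjusted p = 4.04e-06). LINC00641 fell from 30.8 ± 0.409 to 18.2 ± 1.43 CPM (SD, n = 3; log2 -0.73, adjusted p = 2.85e-05), and LINC01234 from 21.1 ± 1.43 to 12.7 ± 1.59 CPM (log2 -0.70, adjusted p = 0.000311). LINC00624 fell from 8.03 ± 0.483 to 3.25 ± 0.859 CPM (log2 -1.11, adjusted p = 0.000271), and LINC01145, annotated as a transcribed pseudogene, from 4.87 ± 0.103 to 2.38 ± 0.283 CPM (log2 -0.80, adjusted p = 0.000328). Both lie in a part of chromosome 1 known for duplicated genes, where reads may be shared between copies. LINC00491 fell from 5.33 ± 0.573 to 2.85 ± 0.185 CPM (log2 -0.71, adjusted p = 0.000716), LINC02381 from 7.54 ± 1.02 to 4.42 ± 0.448 CPM (log2 -0.65, adjusted p = 0.00166), LINC00997 from 2.20 ± 0.313 to 1.01 ± 0.0996 CPM (log2 -0.67, adjusted p = 0.0025) and LINC01287 from 2.30 ± 0.394 to 1.19 ± 0.112 CPM (log2 -0.59, adjusted p = 0.0064). For LINC00997 10.96% of the exonic bases lie in exons of the pseudogene DPY19L1P1.

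**Figure D4:**
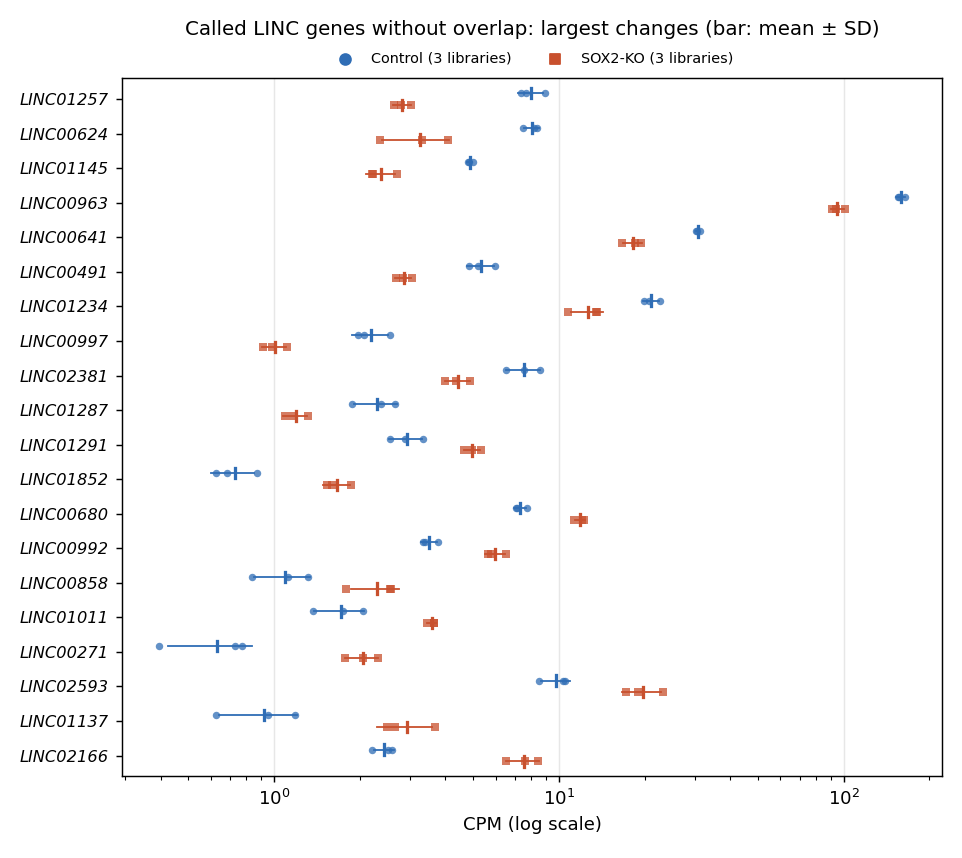
CPM (log axis) of the called LINC genes without overlap that had the 10 largest falls (top) and the 10 largest rises (bottom) in 3 Control (blue circles) and 3 SOX2-KO libraries (red squares), with mean (tick) and SD (bar). The levels run from under 1 CPM to 164 CPM.

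The 6 LINC genes with the highest mean CPM, a rank that is not per length, were LINC00963 and 5 whose changes were smaller. LINC01694 stood at 80.6, 76.9 and 80.5 CPM in Control and 112, 97.3 and 113 CPM in SOX2-KO (log2 0.43, SE 0.06, limma adjusted p = 0.000296). LINC00662 stood at 57.9, 59.3 and 61.0 CPM in Control and 64.5, 75.2 and 77.7 CPM in SOX2-KO (log2 0.28, SE 0.07, adjusted p = 0.00704). Both rose without overlap. LINC01873 stood at 71.4, 70.9 and 74.6 CPM in Control and 80.8, 84.8 and 86.8 CPM in SOX2-KO (log2 0.22, SE 0.04, adjusted p = 0.00276). LINC01578, now named CHASERR and known to restrain its neighbour CHD2 in cis, stood at 69.3, 71.3 and 70.1 CPM in Control and 44.6, 56.3 and 57.3 CPM in SOX2-KO (log2 -0.42, SE 0.09, adjusted p = 0.00284). The groups were apart in both, but the call of LINC01578 was lost with the surrounding genes subtracted (log2 -0.12, adjusted p = 0.235). LINC00665 stood at 89.8, 87.2 and 88.4 CPM in Control and 77.1, 81.6 and 80.5 CPM in SOX2-KO (log2 -0.15, SE 0.04, adjusted p = 0.012). Its direction is not settled. It was not called with median-ratio scaling (log2 -0.09, adjusted p = 0.092), and was called higher with the surrounding genes subtracted (log2 0.16, adjusted p = 0.00885).

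The other 29 called LINC genes were 14 higher, by log2 differences of 0.23 to 0.65, and 15 lower, by -0.58 to -0.16. The 98 that were not called ran from -0.41 (LINC00342) to 0.36 (LINC02367), and 78 of them had means under 5 CPM. LINC-PINT, a p53-induced RNA named here outside the naming rule because it is well known, stood at 0.828, 1.45 and 1.59 CPM in Control and 1.79, 1.74 and 2.17 CPM in SOX2-KO. The groups were apart but the difference was not called (log2 0.35, SE 0.17, limma adjusted p = 0.0988), and 29.6% of its exonic bases lie in exons of another gene.

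Of the 25 LINC genes named above, the nearest protein-coding gene by start was tested for 20. In 17 of these pairs both were called, 12 in the same direction and 5 in opposite directions, and in 3 the neighbour was not called. Of all protein-coding genes 63.1% were called, 27% higher and 36.1% lower, and the LINC genes of these pairs were all called, so such pairs also arise from the background. Without genes that met the minimum through 1 group only, 15 pairs remained, 11 in the same direction and 4 in opposite directions. LINC02166 starts 5832 bases from CDK10, a cyclin-dependent kinase, on the opposite strand, and CDK10 rose from 61.8 ± 5.22 to 98.8 ± 18.0 CPM (SD, n = 3; log2 0.66, adjusted p = 0.0011). LINC01137 starts 141 bases from ZC3H12A, an RNase of inflammatory messages, on the opposite strand, and ZC3H12A was at 0.701 ± 0.542 CPM in Control and 2.03 ± 0.757 CPM in SOX2-KO (log2 0.85), with overlapping groups. Both genes met the minimum only through SOX2-KO, so their shared direction is no result. Of the 175 genes 8 lie wholly inside the span of a protein-coding gene, among them LINC02166 inside CDK10 and LINC02381 inside SMUG1, each on the opposite strand, so without strand their reads and those of unspliced CDK10 or SMUG1 transcripts cannot be told apart. LINC02593 starts 2912 bases from SAMD11, which rose from 18.1 ± 0.780 to 27.3 ± 1.01 CPM (log2 0.57, adjusted p = 7.45e-05). LINC01257 starts 211 kb from ADGRD1, an adhesion G-protein-coupled receptor, which fell from 17.1 ± 0.386 to 7.55 ± 0.866 CPM (log2 -1.09, adjusted p = 1.62e-05). With CDK10, SAMD11 and ADGRD1, RNA and neighbour moved the same way.

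Other neighbours moved apart. LINC00271 starts 25 bases from AHI1, a protein of the ciliary base, on the opposite strand, and AHI1 fell from 39.3 ± 1.60 to 30.5 ± 1.16 CPM (log2 -0.35, adjusted p = 0.00057). LINC00271 had its higher values in SOX2-KO but met the 1 CPM minimum only through that group. The opposite direction of LINC00271 and AHI1 is therefore no result. LINC01873 starts 50.1 kb from MEIS1, a homeodomain partner of HOX proteins, which fell from 19.2 ± 1.56 to 11.4 ± 1.10 CPM (log2 -0.71, adjusted p = 0.000205). LINC01234 starts 193 kb from RBM19, a factor of ribosome assembly, which rose from 22.0 ± 0.809 to 37.0 ± 4.41 CPM (log2 0.72, adjusted p = 9.11e-05) while LINC01234 fell. In these 3 pairs the groups of both genes were apart, which the choice of LINC00271 and LINC01234 required for those LINC genes. BCL9, a Wnt coactivator whose start lies 23.5 kb from that of LINC00624, rose from 35.5 ± 2.12 to 42.9 ± 2.32 CPM (log2 0.27, adjusted p = 0.00585). PAM, an enzyme that amidates peptides, rose from 31.6 ± 1.53 to 39.3 ± 0.797 CPM (log2 0.31, adjusted p = 0.00111), and its start lies 82.4 kb from that of LINC00491.

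In the remaining called pairs of one direction, NQO2 (20 bases from LINC01011, log2 0.33), POLE4 (40.3 kb from LINC01291, 0.36), SLC19A1 (49.2 kb from LINC01694, 0.41) and PRIM2 (647 kb from LINC00680, 0.22) rose, and SMUG1 (62.9 kb from LINC02381, -0.37), NTMT1 (125 kb from LINC00963, -0.31), ZFP14 (47.5 kb from LINC00665, -0.31) and KBTBD2 (134 kb from LINC00997, -0.12) fell. Over a wider span, 170 of the 175 genes had at least 5 protein-coding genes tested within 2.5 Mb. The medians of these neighbourhoods ran from -0.61 to 0.47 on the log2 scale. Across the 170 genes, which share libraries and in part neighbours, a gene's difference and its neighbourhood's median had a Pearson r of 0.192 and a Spearman rho of 0.175, given as a description. After subtraction of the neighbourhood median 52 of the 67 calls remained and 15 were lost.

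**Figure D5:**
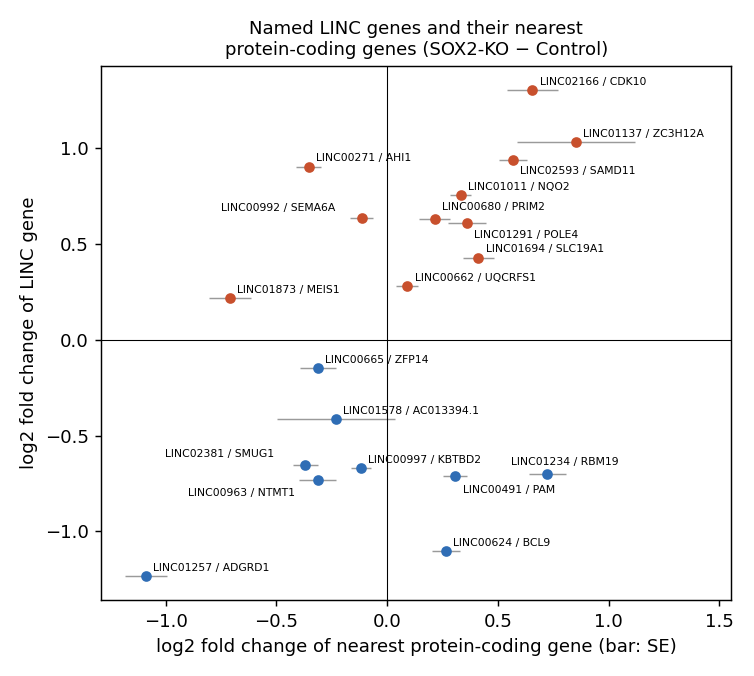
Log2 difference (SOX2-KO minus Control) of the named LINC genes against that of the nearest protein-coding gene tested, with the SE of the latter as a bar, red for LINC genes called higher and blue for those called lower. Of the 17 pairs with both called, 12 lie in the same-direction quadrants, with LINC01257 and ADGRD1 at the lower left.

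Since SOX2 was the gene removed, the start regions were searched for ACAATG and its reverse complement CATTGT, a core that SOX proteins are known to bind. RefSeq windows of 250 bases before to 50 bases after the start (GRCh38.p14) were found for 106 of the 175 genes. The letters were present in 5 of these genes (4.72%), counted once per gene over all its windows, and no host window held them. They were present in 10.8% of the single windows of all genes, so the units of these shares differ. They were present in 2 of 17 genes called higher, 1 of 24 called lower and 2 of 65 not called. Of the 2 called higher, LINC01852 met the 1 CPM minimum only through SOX2-KO, so its direction is no result. The windows of the 3 called genes are shown with the match in capitals: LINC01852 (chr15:38072941-38073240, minus strand), LINC01873 (chr2:66383056-66383355, plus strand) and LINC00339 (chr1:22024941-22025240, plus strand).
LINC01852: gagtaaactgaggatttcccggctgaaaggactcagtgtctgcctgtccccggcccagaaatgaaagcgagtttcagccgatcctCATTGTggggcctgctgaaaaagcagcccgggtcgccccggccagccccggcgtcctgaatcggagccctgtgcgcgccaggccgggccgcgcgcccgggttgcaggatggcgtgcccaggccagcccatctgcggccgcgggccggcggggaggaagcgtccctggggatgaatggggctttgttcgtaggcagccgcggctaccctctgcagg
LINC01873: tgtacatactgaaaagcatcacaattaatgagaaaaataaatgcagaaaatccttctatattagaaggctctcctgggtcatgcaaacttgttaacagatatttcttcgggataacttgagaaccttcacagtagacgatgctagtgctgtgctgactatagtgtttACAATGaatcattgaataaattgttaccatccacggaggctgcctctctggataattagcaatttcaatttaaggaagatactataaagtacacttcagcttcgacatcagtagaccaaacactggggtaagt
LINC00339: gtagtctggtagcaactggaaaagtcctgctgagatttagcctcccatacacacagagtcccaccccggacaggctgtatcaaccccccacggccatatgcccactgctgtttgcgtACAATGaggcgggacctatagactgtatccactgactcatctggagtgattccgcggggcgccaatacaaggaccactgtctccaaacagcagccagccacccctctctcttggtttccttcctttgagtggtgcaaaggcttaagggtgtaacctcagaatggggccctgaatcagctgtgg
LINC00339, named for this match, stood at 16.3, 16.4 and 15.1 CPM in Control and 10.38, 12.5 and 14.1 CPM in SOX2-KO (log2 -0.36, SE 0.11, limma adjusted p = 0.0187). Its groups were apart by a small margin, and the call was lost without Control library 1 or Control library 2 (adjusted p up to 0.061). In it 44.4% of the exonic bases lie in exons of AL031281.3, and its second RefSeq window held no match. A match describes the letters and not binding, and a window without one says only that these letters are not in it.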

How the data were processed

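RNA-seq libraries of CWR-R1 cells, 3 Control and 3 SOX2-KO, were grouped by their titles. The file deposited by the authors gives CPM for 16949 Ensembl IDs, and each column sums to 1000000. Per the submitters' processing notes, kallisto 0.43.1, edgeR 3.22.2, Trimmomatic 0.38, CASAVA 1.8, STAR, Picard, SAMtools and FastQC were used, with no statement of which made the table. Whether strand was used is not given in the sources used here. From 26.5% to 28.4% of the values of a column were whole multiples of 1 read within 0.001 of a read; the rest were fractional, so no count test was run and depths are estimates. CPM is a share of a library, so a large change in a few genes moves the others.

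Names, coordinates and exon overlaps came from GENCODE 29 (GRCh38), which held 16010 of the IDs, and current symbols and start windows from RefSeq (GRCh38.p14; 15924 IDs matched). In 3 of the 175 genes (LINC01347, LINC00685 and LINC01355) all 6 values equal those of a second ID, and 30 shared at least 10% of their exonic bases with another gene. Fits used limma 3.58.1 in R 4.3.3 on log2(CPM + 1), which understates the change of low genes, with a trended variance over the 15927 genes whose mean reached 1 CPM and Benjamini-Hochberg adjustment over all of them; a gene was called at an adjusted p under 0.05, and "rose" and "fell" refer to calls. Every adjusted p of a gene is from this fit unless another is named. Folds are ratios of mean CPM. The fit was tested on simulated data. MALAT1 and NEAT1 were also compared by exact permutation tests with scipy 1.17.1.

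Named genes were SOX2; MALAT1, NEAT1, KCNQ1OT1 and every snoRNA host; the LINC genes that rose most (10) and fell most (10), if called and without overlap; the 6 with the highest mean CPM; their nearest protein-coding genes; and up to 2 called genes in each direction with the smallest p from each of 8 lists of factors. Some of the genes and markers this rule names are not reported here. The genes and lists were chosen with earlier results of these data known. Alternatives covered the pseudocount, the filter, scaling, each library left out, a replicate block and a minimum fold of 1.5. They also covered the neighbourhood within 2.5 Mb and exon overlap. The neighbourhood median was subtracted from the SOX2-KO values as a fixed number, so the adjusted p-values after subtraction leave out the error of that median. Members by current symbols were added after seeing the data.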

Additional observations from a re-analysis of the deposited data

How the results depend on the processing

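The counts of 32 genes called higher and 35 lower moved by more than 1.5 times under few alternatives. With a minimum mean of 5 CPM, which leaves 68 of the 175 genes, 19 were called higher and 25 lower. Against a minimum fold of 1.5 (limma treat) 2 were called higher and 3 lower, the factor lists went from 43 higher and 60 lower to 4 and 2 (57 and 48 with the neighbourhood subtracted, which turned the balance, and 52 and 54 with median-ratio scaling), and MALAT1 kept its log2 difference of -0.73 without a call (adjusted p = 1). Leaving out 1 library gave 22 to 27 higher and 27 to 39 lower, and log2 differences of -0.96 to -0.59 for MALAT1 and -0.31 to 0.19 for NEAT1, which was called lower without SOX2-KO replicate 3 (adjusted p = 0.00477). LINC00665 reversed with the neighbourhood subtracted (0.16). Over the 672 values of the 46 named members other than MALAT1 and NEAT1, 10 lost a call, 3 gained one and that of LINC00665 reversed. The gained call of SNHG21 is no result, since that gene met the 1 CPM minimum only through SOX2-KO. A further 6 values changed sign without a call, in SNHG7, SNHG10 and SNHG14. By current symbols 198 genes met the rule, with 31 higher and 42 lower.

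With the replicate number as a block, 24 were called higher and 31 lower, the lists gave 42 and 61, MALAT1 kept its call (adjusted p = 0.00246), and SNHG20 lost it (adjusted p = 0.0825). Deviations of same-numbered libraries correlated at -0.045, 0.038 and -0.014, and those of other pairs at -0.067 to 0.082. The numbers thus show no pairing in these values, and whether same-numbered libraries share a culture or batch is not known. Other scalings moved the median of all genes by at most 0.06 on the log2 scale. At 1 CPM a library held 20.7 to 25.7 estimated reads, which limits the 107 genes with means of 1 to 5 CPM. The causes of these changes were not tested.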
